A study of Homo sapiens with 4 samples.

Results

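Interferon-stimulated genes and genes that sense double-stranded RNA were described in cells transfected with control siRNA or with siRNA against circZFR, a circular RNA made from exons of *ZFR*. The members were the genes whose symbol is in a fixed list of 53 sensors, signalling genes and interferon-stimulated genes, and all 53 were among the 40205 genes listed. RNA-seq was available for 4 libraries, NC 1 and NC 2 (negative control siRNA) and si-circZFR 1 and si-circZFR 2 (circZFR siRNA), collected 24 h after transfection in RPMI medium with serum. The study design names A549 and the sample labels name H1299, both human lung cancer lines. Both groups received a synthetic RNA duplex, and no untransfected cells were among the libraries, so a response that the 2 duplexes share cannot be seen. Nothing in the labels says that the 2 libraries of a group came from separate cultures, and p-values measure only the spread between these libraries. The question is whether the circZFR siRNA, or the lower *ZFR* that went with it, was accompanied by higher levels of these genes.

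Long double-stranded RNA and RNA with a 5′ triphosphate are bound in the cytosol by RIG-I (encoded by *DDX58*) and MDA5 (*IFIH1*), which signal through MAVS and the kinase TBK1 to IRF3 and IRF7, and these factors switch on interferon genes. Secreted type I interferon binds IFNAR1 and IFNAR2, the kinases JAK1 and TYK2 signal to STAT2, and STAT2 and IRF9 are parts of the complex ISGF3, which binds the interferon-stimulated response element (ISRE) in front of antiviral genes. Synthetic siRNA can engage the same sensors, and ZFR is itself a zinc finger protein that binds double-stranded RNA.

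The sense strand listed for the circZFR siRNA is shown because the groups differed in the siRNA they received. That this listed sequence was the one used for these libraries is taken from its name alone. It has 21 bases, of which 19 are paired, and the capitals mark the 2-base overhang. The sequence of the control siRNA was not used here.
si-circZFR: ccaagcuggcccuuacgucTT
The DNA letters that ISGF3 reads were searched as TTTCNNTTTC or, on the other strand, GAAANNGAAA, in RefSeq promoters (GRCh38.p14) of 300 bases, 250 before and 50 after the start of the transcript. Promoters were found for 42 of the 53 genes, and 22 of these (52.4%) held the motif. Over all 27305 promoters in the table, 996 (3.65%) held it. Overlapping matches were each counted, and a match is a description of letters, not of binding. For 8 of the genes, stretches of at most 30 bases are shown 5′ to 3′ on the gene's strand with the motif in capitals. They include 2 of the 4 members with the highest log2FC (*MX1*, *DTX3L*) and members whose groups hardly differed (*EIF2AK2*, *IFITM3*).
MX1: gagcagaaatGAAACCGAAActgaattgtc
DTX3L: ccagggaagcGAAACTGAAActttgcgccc
SAMD9: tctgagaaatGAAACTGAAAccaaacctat
OAS3: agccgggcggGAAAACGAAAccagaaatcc
ISG15: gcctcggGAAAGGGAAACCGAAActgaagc
IFIT1: tagTTTCACTTTCcccTTTCGGTTTCcct
EIF2AK2: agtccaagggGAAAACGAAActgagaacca
IFITM3: gGAAAAGGAAActgttgaGAAACCGAAAc
In GRCh38.p14 these stretches lie at chr21:41420559-41420588 for *MX1* (plus strand), chr3:122564322-122564351 for *DTX3L* (plus strand), chr7:93118096-93118125 for *SAMD9* (minus strand) and chr12:112938452-112938481 for *OAS3* (plus strand). Those of *ISG15* and *IFIT1* lie at chr1:1013377-1013406 and chr10:89392504-89392532 (both plus strand), and those of *EIF2AK2* and *IFITM3* at chr2:37156967-37156996 and chr11:320885-320913 (both minus strand). The stretch of *MX1* lies just inside the transcript, from position 2 to 31 counted from 1 at its start, and the stretches of *DTX3L*, *OAS3* and *EIF2AK2* span the start.

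The authors deposited RPKM values, a gene's reads divided by its length in kilobases and by the size of the library. Whole reads could be recovered from them, and the library totals ranged from 11040050 to 12816868 reads. Values below are scaled RPKM, the deposited RPKM multiplied by 1 factor for each library. The values of a group are given in the order of replicates 1 and 2, controls first. A gene was tested where 2 or more of the libraries had an RPKM of 1 or higher. The log2FC is si-circZFR minus NC on the scale of log2(scaled RPKM + 1), which understates the change of low genes, and FDR is the Benjamini-Hochberg adjusted p of limma over all 13885 genes tested. *ZFR*, the host gene, had 26.0 and 31.9 scaled RPKM in NC and 5.25 and 4.63 in si-circZFR, and it passed, with a log2FC of -2.33 (SE 0.174) and an FDR of 0.0388. Reads of the circle and of linear *ZFR* are not told apart in a gene's RPKM. By RT-PCR, the authors' article reports that siRNA against circZFR lowered the circle and left *ZFR* without a detectable change in the lung cancer lines A549 and HCC827. The fall of *ZFR* in these libraries differs from that report, and the reason was not tested. Of the cell line markers, the enzymes *AKR1B10*, *AKR1C1*, *AKR1C2*, *AKR1C3*, *ALDH1A1* and *ALDH3A1*, listed for A549, lay between 515 and 1677 scaled RPKM in all 4 libraries, while *UGT1A6* of the same list was at most 0.457. Of the genes listed for H1299, *VIM* lay between 528 and 665, *FN1* between 91.9 and 135.3, *CDH2* between 7.10 and 7.65, *ZEB1* between 2.27 and 3.40 and *SPOCK1* between 0.946 and 1.34. The leukocyte gene *PTPRC* was at 0 reads in all 4 libraries and the endothelial gene *PECAM1* at no more than 2 reads, and of the other markers of foreign cells *CD68* lay between 55.1 and 81.1 scaled RPKM and *PDGFRB* at no more than 5 reads. The fibroblast gene *COL1A1* (0.877 and 0.612 in NC, 1.34 and 1.89 in si-circZFR) and the epithelial genes *CDH1* (11.4 and 8.52 in NC, 21.7 and 21.3 in si-circZFR) and *EPCAM* (0.397 and 0.402, then 1.83 and 2.66) were higher in both silenced libraries. So were the epithelial genes *KRT8* (735 and 1200, then 1212 and 1238) and *KRT18* (1243 and 1453, then 1786 and 1652), and *ALDH1A1* (753 and 1009, then 1167 and 1301). *VIM*, *ZEB1*, *SPOCK1*, *CD68* and *PDGFRB* were lower in both. The part of these differences in the results below was not tested. These are bulk libraries, so fewer cells that express a gene and less of its RNA per cell cannot be told apart.

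Of the 53 genes, 42 were tested and 11 lay under the limit. None of the 42 passed FDR < 0.05 and |log2FC| > 1 by limma, the smallest FDR being 0.138 for *MX1*, and 8 of all 13885 genes tested (0.0576%) passed. By limma-voom on the recovered reads none of the 42 passed either, against 304 of all genes tested (2.19%), and the smallest FDR was 0.0538 for *SAMD9L*. At an unadjusted p under 0.05 by limma, 3 of the 42 members were higher after silencing circZFR (*MX1*, *SAMD9L*, *DTX3L*). Another 3 of the 42 were lower (*IFNGR2*, *UBE2L6*, *IFNAR2*), while 10.1% of all genes tested were higher and 11.5% lower at that p. *SAMD9L* reached the limit for testing only through the si-circZFR libraries, so the filter favoured its direction. By limma-voom, 7 of the 42 members had an unadjusted p under 0.05, 4 of them higher, and 11.7% of all genes tested were higher and 11.8% lower at that p in this fit. With a correction for gene length, *SAMD9L* (log2FC 0.47, unadjusted p 0.0676), *DTX3L* (0.34, p 0.0778) and *UBE2L6* (-0.23, p 0.304) no longer had an unadjusted p under 0.05 by limma, while *IRF7* (0.51, p 0.0261) and *ISG15* (0.58, p 0.0438) did. Without scaling, *IFNGR2* (-0.43, p 0.0535), *UBE2L6* (-0.39, p 0.0804) and *IFNAR2* (-0.24, p 0.236) no longer did by limma. In that setting *IRF7* (0.61, p 0.0213), *PARP9* (0.52, p 0.0338) and *IRF3* (0.40, p 0.0423) did, and the median log2FC over all genes tested was 0.15.

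The log2FC of the 42 genes had a median of 0.09 and ranged from -0.60 to 0.63, and the median over all genes tested was 0.01. Without regard to size, 26 of the 42 (61.9%) were higher after silencing and 16 were lower, and 50.6% of all genes tested were higher. Both si-circZFR libraries lay above both NC libraries in 13 of the 42 (31.0%), against 28.1% of all genes tested. They lay below both NC libraries in 5 (11.9%), against 28.1% of all genes tested, and the groups overlapped in 24. The median absolute log2FC of the members was 0.19 (0.27 over all genes tested), and the median absolute difference between NC 2 and NC 1 was 0.22 (0.25 over all genes tested). The first is a difference between means of 2 libraries and the second between single libraries, so the sizes are not compared.

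**Figure D1:**
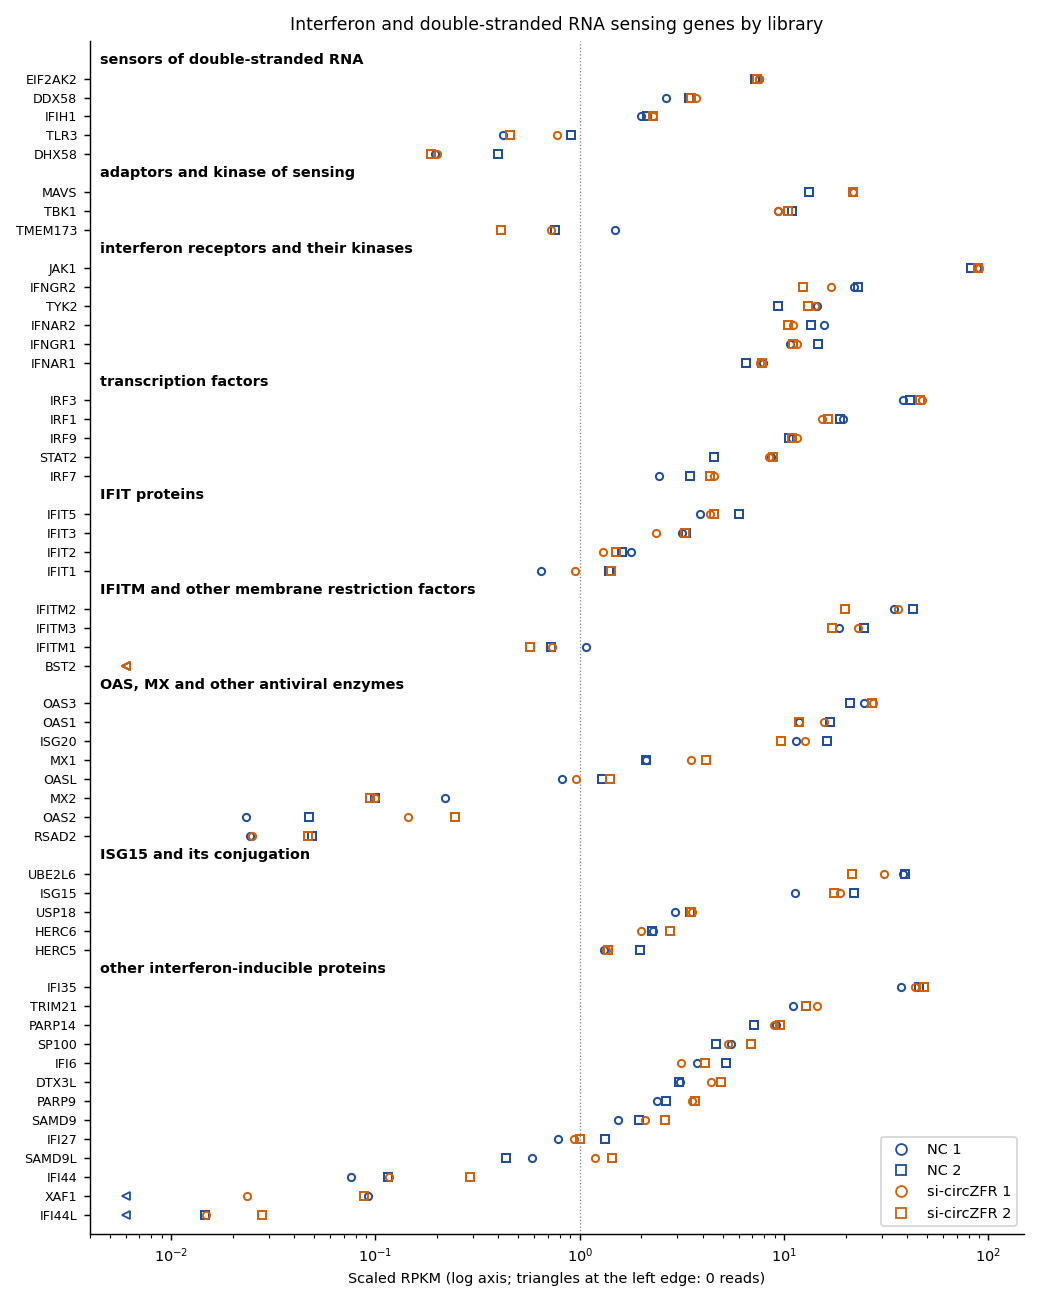
Scaled RPKM (log axis) of the 53 genes in NC 1 and NC 2 (blue) and si-circZFR 1 and si-circZFR 2 (orange), grouped by role and ordered by mean level, with triangles at the left edge for 0 reads and a dotted line at 1. The levels ran from 0 reads for *BST2* to between 82.5 and 89.5 for *JAK1*, and for most genes blue and orange points lay close together.

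The 13 genes with both si-circZFR libraries above both NC libraries were *DDX58*, *IFIH1*, *JAK1*, *IRF3*, *IRF7*, *OAS3*, *MX1*, *USP18*, *SAMD9*, *SAMD9L*, *PARP9*, *DTX3L* and *TRIM21*. The 5 with both below were *IFNAR2*, *IFNGR2*, *IRF1*, *IFIT2* and *UBE2L6*. The library NC 2 differed from NC 1 with gene length (Spearman's rho -0.344 between length and log2 NC 2 minus NC 1 over the genes tested, with no test, since all genes share the libraries). Without NC 2, an alternative chosen after the data were seen, both si-circZFR libraries lay above NC 1 in 22 of the 42 (52.4%, against 39.8% of all genes tested) and below it in 9 (21.4%, against 39.9%).

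**Figure D2:**
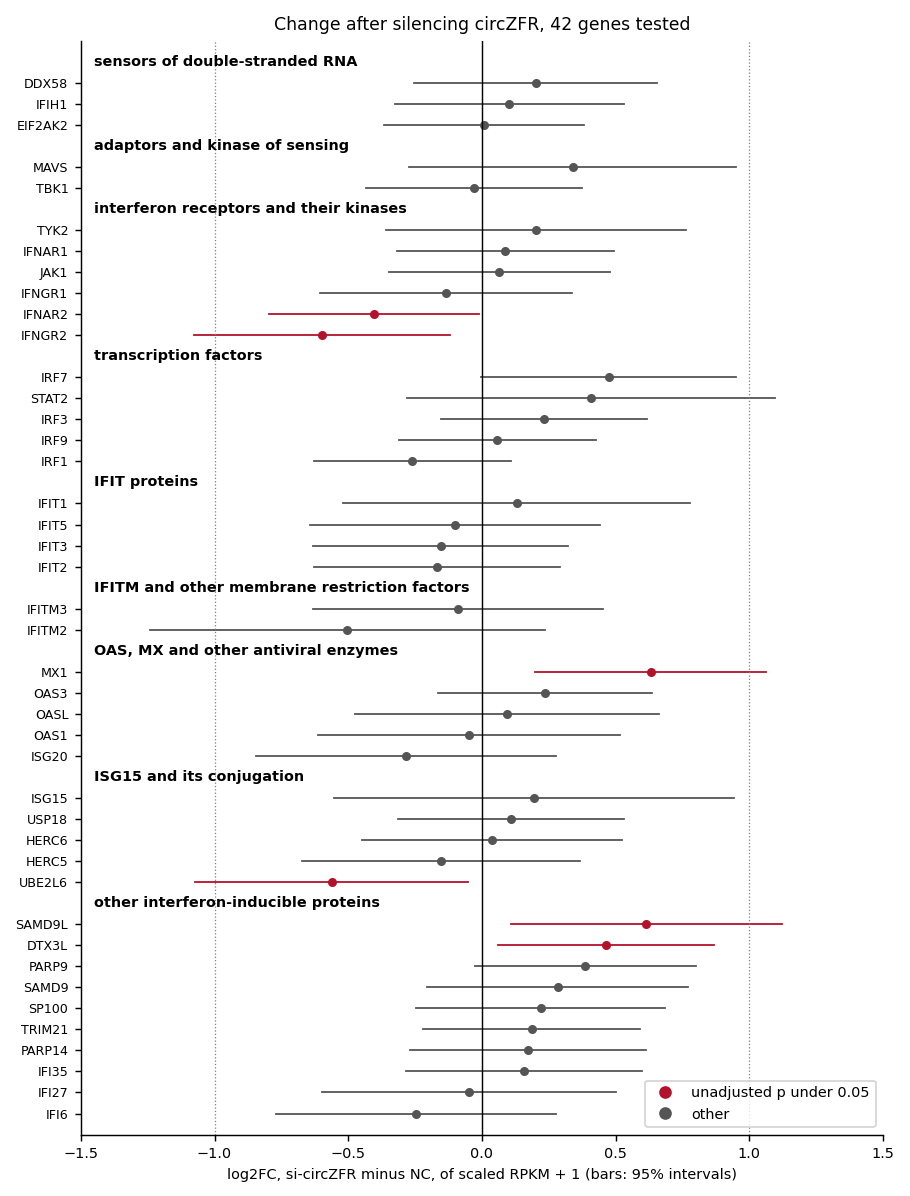
The log2FC (si-circZFR minus NC) of scaled RPKM + 1 for the 42 genes tested, grouped by role, with 95% intervals from limma and red for the 6 genes with an unadjusted p under 0.05. The points lay between -0.60 and 0.63, inside the dotted lines at -1 and 1 that mark the fold threshold, and no gene passed the FDR.

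Of the 5 sensors, 3 were tested, and their log2FC lay between 0.01 and 0.20. *DDX58* had 2.64 and 3.43 scaled RPKM in NC and 3.72 and 3.50 in si-circZFR. The groups did not overlap, but si-circZFR 2 was within 0.1 of NC 2, and the log2FC of 0.20 (SE 0.184, FDR = 0.553 by limma) had a 95% interval from -0.25 to 0.65 and was 0.05 without NC 1 and 0.34 without NC 2. *IFIH1*, which recognizes long duplexes, had 1.99 and 2.13 in NC and 2.28 and 2.29 in si-circZFR, a log2FC of 0.10 (SE 0.174, FDR = 0.760). *EIF2AK2* encodes PKR, a kinase that stops translation when it binds double-stranded RNA and is itself induced by interferon. It had 7.57 and 7.19 in NC and 7.50 and 7.35 in si-circZFR, with both silenced libraries between the controls. Its log2FC of 0.01 (SE 0.151) had a 95% interval from -0.36 to 0.38, and its sign turned under some settings. The remaining sensors lay under the limit. *TLR3*, the endosomal receptor for double-stranded RNA, had 15 and 32 reads in NC and 27 and 17 in si-circZFR, and *DHX58*, which encodes the regulator LGP2, had 6 and 12 in NC and 6 in each silenced library.

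Among the adaptors, *MAVS*, through which both cytosolic sensors signal, had 21.8 and 13.2 scaled RPKM in NC and 21.7 and 21.8 in si-circZFR. NC 2 alone was low, the other 3 libraries lay within 0.1 of each other, and the log2FC of 0.34 (SE 0.248, FDR = 0.456 by limma) became -0.01 without NC 2. *TBK1*, the kinase of IRF3, had 9.33 and 10.9 in NC and 9.36 and 10.4 in si-circZFR, and the groups overlapped. *TMEM173*, which encodes the DNA-sensing adaptor STING, was not tested, with 38 and 19 reads in NC and 18 and 11 in si-circZFR. Relative to the library totals its ratio of si-circZFR to NC was 0.565, with a 95% exact interval of 0.348 to 0.899 that covers counting error only, and NC 2 and si-circZFR 1 differed by a single read.

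The receptors and their kinases held both of the signalling genes with an unadjusted p under 0.05, and both were lower. *IFNGR2*, the signalling chain of the interferon gamma receptor, had 22.0 and 23.0 scaled RPKM in NC and 17.0 and 12.4 in si-circZFR. The controls agreed closely while the silenced libraries differed, and the log2FC of -0.60 (SE 0.194, unadjusted p 0.0226, FDR = 0.171 by limma) was -0.37 without si-circZFR 2 and -0.80 without si-circZFR 1. *IFNAR2*, a chain of the type I receptor, had 15.7 and 13.5 in NC and 11.0 and 10.5 in si-circZFR, a log2FC of -0.40 (SE 0.159, unadjusted p 0.0451, FDR = 0.222). Its log2FC was -0.24 without scaling and ran from -0.51 to -0.31 as libraries were left out. With the replicate number as a block its unadjusted p by limma was 0.0536, and without the trend in the prior 0.0573. Both silenced libraries lay below both controls for these genes, and neither passed. The partner chains gave other values. *IFNAR1* had 7.86 and 6.53 in NC and 7.59 and 7.77 in si-circZFR, and *IFNGR1* had 10.7 and 14.6 in NC and 11.6 and 11.1 in si-circZFR. For both the groups overlapped, with log2FC of 0.09 and -0.13.

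*JAK1*, the kinase common to the type I and type II receptors, was the member with the highest level, with 87.8 and 82.5 in NC and 89.5 and 88.7 in si-circZFR. The mean differed by 4.67%, and the log2FC of 0.07 (SE 0.167, FDR = 0.842 by limma) turned to -0.04 when gene length was corrected for. *TYK2* had 14.5 and 9.37 in NC and 14.2 and 13.1 in si-circZFR, with NC 2 alone low, as for *MAVS*. Over the 6 genes of this group the median log2FC was -0.03, and 0.13 without scaling, a setting in which the median over all genes tested was 0.15.

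Of the 5 transcription factors, 4 were higher, where 50.6% of all genes tested were higher, and none passed. *IRF7*, the interferon-inducible regulator that amplifies interferon production, had 2.45 and 3.45 scaled RPKM in NC and 4.55 and 4.34 in si-circZFR. Its mean was 2.95 ± 0.707 in NC and 4.45 ± 0.149 in si-circZFR (SD, n = 2 each), 50.6% higher, with a log2FC of 0.47 (SE 0.194, unadjusted p 0.0515, FDR = 0.232 by limma) that was 0.29 without NC 1 and 0.66 without NC 2. *IRF3*, which cells express without interferon, had 38.2 and 41.4 in NC and 47.4 and 46.5 in si-circZFR, a log2FC of 0.23 (SE 0.156, FDR = 0.422). *STAT2* had 8.62 and 4.52 in NC and 8.48 and 8.87 in si-circZFR. Again NC 2 alone was low, and the log2FC of 0.41 (SE 0.279, FDR = 0.429) became 0.00 without NC 2 and 0.81 without NC 1. *IRF9*, the DNA-binding part of ISGF3, had 11.0 and 10.5 in NC and 11.6 and 10.9 in si-circZFR, and the groups overlapped. *IRF1*, a factor induced by interferon gamma, had 19.5 and 18.7 in NC and 15.2 and 16.3 in si-circZFR, lower in both silenced libraries, with a log2FC of -0.26 (SE 0.150, FDR = 0.355).

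The IFIT proteins bind foreign RNA ends and are among the first genes that interferon induces. None of the 4 tested passed, and 1 was higher and 3 were lower, where 50.6% of all genes tested were higher. *IFIT1* had 0.647 and 1.38 scaled RPKM in NC and 0.945 and 1.42 in si-circZFR, from 35 to 80 reads per library. NC 2 and si-circZFR 2 were nearly equal, and the log2FC of 0.13 (SE 0.263, FDR = 0.799 by limma) had a 95% interval from -0.52 to 0.78. *IFIT2* had 1.78 and 1.61 in NC and 1.30 and 1.50 in si-circZFR, *IFIT3* 3.15 and 3.29 in NC and 2.37 and 3.28 in si-circZFR, and *IFIT5* 3.86 and 5.99 in NC and 4.34 and 4.53 in si-circZFR. Only for *IFIT2* did the groups not overlap among these 4 genes, and there the silenced libraries were lower. The median log2FC of the 4 was -0.13, and 0.01 without scaling.

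The IFITM proteins sit in membranes and hinder virus entry. Their genes are near-identical neighbours, and how reads mapping to several of them were counted is not given in the sources used here, so their values are uncertain. *IFITM2* had 34.7 and 42.6 scaled RPKM in NC and 36.2 and 19.8 in si-circZFR. Only si-circZFR 2 was low, and the log2FC of -0.50 (SE 0.300, FDR = 0.370 by limma) was -0.07 without si-circZFR 2. *IFITM3* had 18.5 and 24.6 in NC and 23.1 and 17.2 in si-circZFR, a log2FC of -0.09 (SE 0.220, FDR = 0.834) that was 0.08 without scaling. *IFITM1* had 9 and 6 reads in NC and 6 and 5 in si-circZFR and was not tested. *BST2*, which encodes the virus-tethering protein tetherin, was listed at 0 in all 4 libraries, where 3 reads correspond to 0.234 to 0.272 CPM (counts relative to the library total).

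*MX1*, a dynamin-like GTPase that traps viral nucleoproteins and is used as an indicator of type I interferon, had the smallest p of the 42 genes. It had 2.11 scaled RPKM in each control and 3.50 and 4.17 in si-circZFR, from 84 and 83 reads in NC and 136 and 173 in si-circZFR. Both silenced libraries lay above the controls, and the mean was 81.4% higher. The log2FC was 0.63 (SE 0.176, unadjusted p 0.0121, FDR = 0.138 by limma) with a 95% interval from 0.20 to 1.06, and it stayed between 0.54 and 0.74 when each library was left out in turn. By limma-voom its FDR was 0.0947.

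The 2-5A synthetases (OAS) make an antiviral messenger when they bind double-stranded RNA. *OAS3* had 24.7 and 20.9 scaled RPKM in NC and 27.1 and 26.9 in si-circZFR, a log2FC of 0.24 (SE 0.162, FDR = 0.430 by limma). *OAS1* had 11.8 and 16.7 in NC and 15.6 and 11.8 in si-circZFR, with each group holding a low and a high library, and the log2FC of -0.05 (SE 0.229, FDR = 0.919) was 0.11 without scaling. *OAS2* lay far under the limit, with 1 and 2 reads in NC and 6 and 11 in si-circZFR. Relative to the library totals, si-circZFR had 6.29 times the NC level, with a 95% exact interval of 1.82 to 33.5 that covers counting error only. *OASL* had 0.818 to 1.41 over the 4 libraries and *ISG20*, an exonuclease gene, 9.63 to 16.3, and for both the groups overlapped. *MX2* (9 and 4 reads in NC, 4 in each silenced library) and *RSAD2* (1 and 2 reads in each group), which encodes the antiviral enzyme viperin, were not tested.

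**Figure D3:**
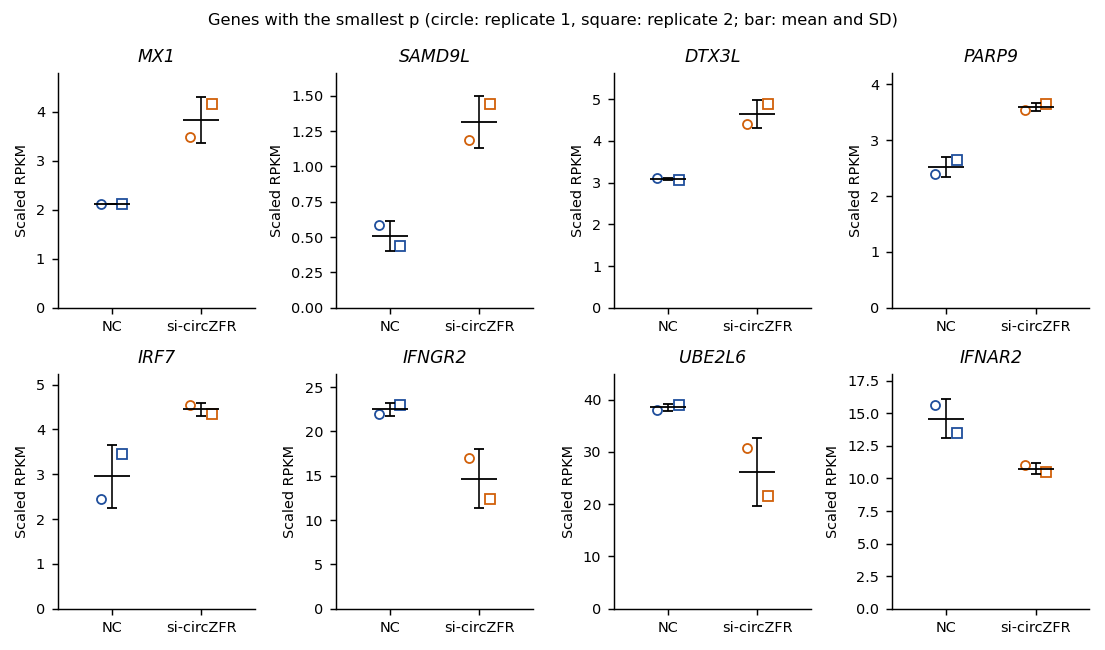
Scaled RPKM of the 8 members with the smallest p, each in a panel with its own axis from 0, with a circle for replicate 1, a square for replicate 2, and the mean and SD of each group (n = 2). In each panel both si-circZFR points lie on the same side of both NC points, higher for *MX1*, *SAMD9L*, *DTX3L*, *PARP9* and *IRF7* and lower for *IFNGR2*, *UBE2L6* and *IFNAR2*, with *MX1* at 2.11 in both controls and 3.50 and 4.17 after silencing. Picking by p favours such a separation, which over all genes tested was seen upward in 28.1% and downward in 28.1%.

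ISG15 is a small modifier that is joined to proteins by the conjugating enzyme UBE2L6 and the ligase HERC5, and removed by USP18. *ISG15* had 11.2 and 21.9 scaled RPKM in NC and 18.7 and 17.6 in si-circZFR. The controls differed more from each other than from the silenced libraries, which lay between them, and the log2FC of 0.20 (SE 0.303, FDR = 0.733 by limma) had a 95% interval from -0.55 to 0.94. *UBE2L6* had 38.0 and 39.0 in NC and 30.7 and 21.6 in si-circZFR. It was lower in both silenced libraries, which differed from each other, with a log2FC of -0.56 (SE 0.207, unadjusted p 0.0361, FDR = 0.202) that was -0.30 without si-circZFR 2 and -0.79 without si-circZFR 1. *USP18* had 2.93 and 3.48 in NC and 3.55 and 3.49 in si-circZFR, *HERC5* 1.31 and 1.96 in NC and 1.34 and 1.37 in si-circZFR, and *HERC6* 2.29 and 2.26 in NC, with si-circZFR 1 below both and si-circZFR 2 above both at 2.77. The log2FC of these 3 genes lay between -0.15 and 0.11.

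The other interferon-inducible genes held the tested member with the largest relative difference. *SAMD9L*, which encodes an antiviral and growth-restraining protein, had 0.586 and 0.436 scaled RPKM in NC and 1.19 and 1.44 in si-circZFR, from 49 and 36 reads in NC and 97 and 126 in si-circZFR. Only the silenced libraries reached the RPKM needed for testing, so a gene in this position enters the test with the silenced group higher. The silenced libraries were above both controls, with a mean 157% higher, and the log2FC of scaled RPKM + 1 was 0.62 (SE 0.205, unadjusted p 0.0251, FDR = 0.176 by limma). By limma-voom, which adds no value of that size to a low gene, the log2FC was 1.36 and the FDR 0.0538. Its neighbour and relative *SAMD9* had 1.54 and 1.95 in NC and 2.07 and 2.62 in si-circZFR, a log2FC of 0.28 (SE 0.198, FDR = 0.436).

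*PARP9* and *DTX3L* encode partners in a complex that joins ADP-ribosylation to ubiquitin signalling. Their genes run in opposite directions, and by their RefSeq starts they overlap over 447 bases of the genome. How much of that span is exon in both genes was not examined. Reads from any exon they share cannot be told apart unless counting used the strand, which is not given in the sources used here. *DTX3L* had 3.10 and 3.07 scaled RPKM in NC and 4.40 and 4.89 in si-circZFR, 50.5% higher on average, with a log2FC of 0.46 (SE 0.164, unadjusted p 0.0307, FDR = 0.189 by limma). *PARP9* had 2.39 and 2.64 in NC and 3.54 and 3.65 in si-circZFR, 42.8% higher, with a log2FC of 0.39 (SE 0.167, unadjusted p 0.0617, FDR = 0.253) that was 0.25 with the length correction. For both genes the silenced libraries lay above both controls.

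*IFI35*, the member with the next highest level after *JAK1*, had 37.3 and 45.6 in NC and 43.8 and 48.5 in si-circZFR, a log2FC of 0.16 (SE 0.179, FDR = 0.633 by limma) that was 0.01 without NC 1, 0.29 without NC 2 and 0.34 with the length correction. *TRIM21*, which encodes a cytosolic antibody receptor, had 11.0 and 12.8 in NC and 14.5 and 12.8 in si-circZFR, and *PARP14* had 9.16 and 7.11 in NC and 8.90 and 9.58 in si-circZFR. *SP100*, a gene of nuclear bodies, had 5.52 and 4.62 in NC and 5.33 and 6.86 in si-circZFR. The log2FC of these 3 genes lay between 0.17 and 0.22, and none passed. *IFI6* had 3.77 and 5.22 in NC and 3.14 and 4.08 in si-circZFR, and *IFI27*, a gene that interferon often induces strongly, had 6 to 10 reads in each library and a log2FC of -0.05. The genes *IFI44* (2 and 3 reads in NC, 3 and 8 in si-circZFR), *IFI44L* (0 and 1, then 1 and 2) and *XAF1* (4 and 0, then 1 and 4) were not tested. For *IFI44* the ratio of si-circZFR to NC relative to the library totals was 2.44, with a 95% exact interval of 0.783 to 8.97 for counting error.

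Grouped more widely, the 16 signalling members tested had a median log2FC of 0.08 with 11 higher (68.8%), and the 26 induced effectors a median of 0.10 with 15 higher (57.7%). Members whose promoter held the ISRE letters (17 tested) had a median log2FC of 0.10 with 10 higher, and those whose promoter did not (18 tested) a median of 0.08 with 12 higher. Of all genes tested, 50.6% were higher. Over the tested genes with a promoter entry, the medians were 0.00 for 231 genes with the letters and 0.03 for 8528 without, and tested genes with no entry were left out. *MX1*, *DTX3L* and *SAMD9* hold the letters, and so do *EIF2AK2*, *IFIT3* and *ISG20*, whose log2FC lay between -0.28 and 0.01. *SAMD9L* and *PARP9* had no match in this window.

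**Figure D4:**
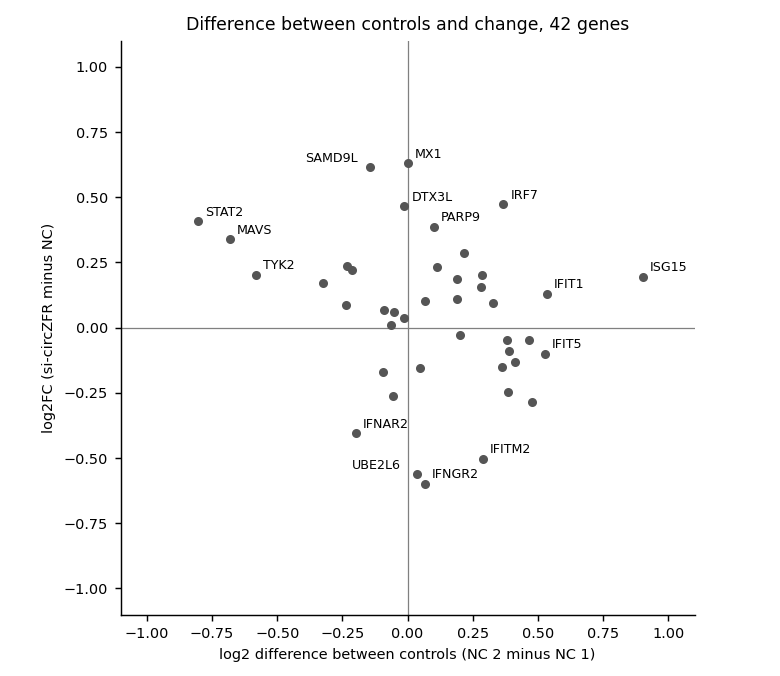
Difference between the controls (x axis, log2 of NC 2 minus NC 1) and the log2FC (y axis, si-circZFR minus NC), both of scaled RPKM + 1, 1 point for each of the 42 genes tested. *MX1* and *DTX3L* lie near 0 on the x axis with log2FC of 0.63 and 0.46, while *STAT2*, *MAVS* and *TYK2* lie at -0.80, -0.68 and -0.58 and *ISG15* at 0.90.

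A further list of 109 genes of the pathway that are not members was read from the same test. Of these, 83 were tested, 42 higher and 41 lower, with a median log2FC of 0.00. None passed by limma, and *HELZ2* alone passed by limma-voom. At an unadjusted p under 0.05 by limma, 10 of the 83 were higher and 5 of the 83 lower. Of all genes tested, 10.1% were higher and 11.5% lower at that p. Of the 9 interferon genes in it, *IFNA1*, *IFNB1*, *IFNG*, *IFNK*, *IFNL1*, *IFNL3* and *IFNW1* were at 0 reads in all 4 libraries, *IFNL2* had at most 2 reads, and *IFNE* had 25 and 2 in NC and 11 and 10 in si-circZFR. The chemokine genes *CXCL10* and *CXCL11*, strongly induced by interferon in many cells, were also at 0 reads in all 4.

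*HELZ2*, a helicase and nuclear receptor coactivator gene that interferon induces, had 4.30 and 3.38 scaled RPKM in NC and 7.16 and 8.34 in si-circZFR. Its log2FC was 0.86 (SE 0.182, FDR = 0.0968 by limma), and 1.02 with an FDR of 0.0404 by limma-voom. *TRAF3*, which links MAVS to TBK1, had 7.19 and 5.04 in NC and 9.48 and 10.7 in si-circZFR, a log2FC of 0.65 (SE 0.202, FDR = 0.161) that was 0.43 without NC 2. *PTPN11*, a phosphatase gene, had 13.3 and 12.5 in NC and 19.1 and 22.5 in si-circZFR, a log2FC of 0.64 (SE 0.162, FDR = 0.123). The other 3 genes were lower. *CCL5*, a chemokine that IRF3 and NF-kappa-B induce, had 8.32 and 14.2 in NC and 5.59 and 2.55 in si-circZFR, a log2FC of -1.30 (SE 0.366, FDR = 0.142) that was -0.84 without si-circZFR 2. *PSMB9*, an immunoproteasome subunit induced by interferon gamma, had 15.0 and 16.0 in NC and 8.57 and 9.80 in si-circZFR, a log2FC of -0.70 (SE 0.157, FDR = 0.104) that was -0.28 with the length correction. *TRIM14*, an adaptor of MAVS signalling, had 9.61 and 10.6 in NC and 6.78 and 6.47 in si-circZFR, a log2FC of -0.54 (SE 0.154, FDR = 0.143). In all 6 genes both silenced libraries lay on the same side of both controls, and none passed by limma. These genes were picked by their p, which favours such a separation. Over all genes tested, both silenced libraries lay above both controls in 28.1% and below them in 28.1%.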

How the data were processed

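RNA of 4 libraries was sequenced by the authors on an Ion Proton, and RPKM values per gene were deposited. Their article names hg38 and the submitters' processing notes name GRCh37, and the aligner and annotation are not given in the sources used here. According to its methods, SVA served to remove batch effects. RefSeq sequences are from GRCh38.p14.

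Whole reads were recovered from the deposited RPKM: library totals were fixed from microRNA genes of known hairpin length, and 24269 of 24289 genes above 0 (99.9%) then came back as whole reads within 0.02 of a read. The length of a gene was taken as the shortest that gave whole reads in every library, and it was not checked against annotation. Genes with few reads meet this easily, and their reads come back too low where the true counts share a factor. Totals were 11959335 reads (NC 1), 12816868 (NC 2), 11266089 (si-circZFR 1) and 11040050 (si-circZFR 2), of which 98.4% to 98.6% lay on listed genes. Intervals of read ratios are exact at 95% and cover counting error only.

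RPKM values were multiplied by factors of 0.902 to 1.11, obtained by the trimmed mean of log ratios with 30% of the ratios and 5% of the levels cut off. The 13885 genes that reached an RPKM of 1 in 2 or more libraries were tested by limma with a trended prior (median prior degrees of freedom 3.81) on log2(scaled RPKM + 1). A gene passed at FDR < 0.05 and |log2FC| > 1. An exact permutation test of 2 against 2 libraries cannot go below p = 0.333 and was not used. Scripts were run on simulated counts with the same dispersion for all genes and no difference between libraries with gene length. That run checks the code and does not measure error rates in these data. Alternatives covered scaling, filter, pseudocount, limma-voom, the prior, the replicate number as a block, a correction for gene length, the threshold, and leaving out each library.

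Values in all libraries are given for the 10 members with the smallest p, the 5 highest, 8 set genes (*DDX58*, *IFIH1*, *EIF2AK2*, *IFIT1*, *ISG15*, *MX1*, *OAS1*, *STAT2*), the 3 IFITM paralogs, *ZFR*, and the 3 higher and 3 lower other pathway genes with the smallest p. Other genes were named to account for every member, some after their values were seen. Results for some other pathway genes are not given. The members and lists were chosen with earlier results of these data known. Tools were limma 3.58.1 in R 4.3.3, and pandas 2.3.3, numpy 2.4.6, scipy 1.17.1 and matplotlib 3.10.9 in Python 3.11.15.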

Additional observations from a re-analysis of the deposited data

How the results depend on the processing

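No member passed under any of the 15 alternatives, limma-voom and the fits with the replicate block included. The number of all genes that passed, 8 in the reported fit, was 0 without a filter, 180 with genes above 1 CPM, 2 and 5 with pseudocounts of 0.1 and 0.5, 304 by limma-voom, 1 without a trend in the prior, 14 with the length correction, and 0 to 937 when each library was left out (937 without NC 1, 0 without each of the others). The cause was not tested. Same-numbered libraries did not deviate together (r = 0.069 across genes). With the replicate block, 63 of all genes passed, and 303 with the block and the length correction.

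The median log2FC of the members, 0.09, was 0.22 without scaling. The median over all genes was 0.15 in that setting, against 0.01, and relative to it the members' median was 0.07. Leaving out each library gave 0.025 (without NC 1) to 0.11. The other alternatives moved the median by less than 0.060, the SD of the 4 medians between single libraries. Without NC 2, chosen after the data were seen, members with both si-circZFR libraries above the control numbered 22 in place of 13, and those below 9 in place of 5. The shares over all genes tested also moved, from 28.1% to 39.8% above and from 28.1% to 39.9% below.

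The log2FC of *ZFR* lost its FDR without a filter (-2.34), with a pseudocount of 0.1 (-2.52) and without the trend (-2.33), and was -2.47 to -2.20 when each library was left out, passing there only without NC 1. Of the named genes, 19 values turned in sign. *JAK1* was -0.043 and *EIF2AK2* -0.084 with the length correction, with or without the block, and *EIF2AK2* was -0.0077 without a filter and -0.0073 with the CPM filter, and ran from -0.028 (without NC 2) to 0.037 as libraries were left out. *IFIT1* was -0.14 without NC 1 and 0.29 without si-circZFR 1, and it fell under the filter without NC 2 or si-circZFR 2, so those fits are missing. As libraries were left out, *ISG15* ran from -0.26 (without NC 1) to 0.64, *OAS1* from -0.28 to 0.18 and *IFITM3* from -0.29 to 0.12, the latter 2 above 0 without NC 2 or si-circZFR 2. *OAS1* and *IFITM3* were 0.11 and 0.076 without scaling, below the median of all genes in that setting, and 0.045 and 0.30 with the length correction, with or without the block. At this depth, the 11 untested members had at most 38 reads in any library.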

Other observations

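Genes that act beside the members in the same pathway, named here after their values were seen, had the following levels. *IFNLR1*, a receptor chain for type III interferon, had 0.691 and 0.454 scaled RPKM in NC and 1.41 and 1.25 in si-circZFR, a log2FC of 0.57 (SE 0.207, FDR = 0.195 by limma). *JAK2*, a kinase of the interferon gamma receptor, had 1.87 and 1.13 in NC and 2.38 and 3.05 in si-circZFR, a log2FC of 0.58 (SE 0.229, FDR = 0.221). *TARBP2*, which encodes the double-stranded RNA-binding partner of Dicer, had 11.0 and 11.2 in NC and 7.78 and 8.33 in si-circZFR, a log2FC of -0.42 (SE 0.150, FDR = 0.195). The groups did not overlap in these 3 genes, and none passed. Over all genes tested, both silenced libraries lay above both controls in 28.1% and below them in 28.1%. *IFNLR1* reached the limit for testing only through the silenced libraries, so the filter favoured its direction. *ADAR*, which edits double-stranded RNA, had 54.0 and 45.1 in NC and 52.3 and 53.5 in si-circZFR, with overlapping groups and a log2FC of 0.10 (SE 0.172, FDR = 0.767).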
